A study of Mus musculus with 18 samples.

Results

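The expression of 10 genes of the inflammasome pathway was followed in bone marrow-derived macrophages (BMDMs). The genes were the sensors Nlrp3, Aim2, Nlrc4, Naip2, Naip5 and Mefv, the adaptor Pycard, the caspases Casp1 and Casp4, and the pore-forming effector Gsdmd. They were taken by symbol from the gene tables, all 10 were present, and each table listed 24485 genes. RNA was sequenced from 18 libraries in 6 groups of 3. The comparisons ask how inhibition of BET proteins before lipopolysaccharide (LPS) changes the macrophage response, and how this differs from pretreatment with the anti-inflammatory cytokine IL-10.

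Inflammasomes are protein complexes of the cytosol that assemble when a sensor meets a microbial product or a sign of cell damage. The sensor recruits caspase-1, often through the adaptor ASC (the product of Pycard), and caspase-1 then matures the cytokines IL-1β and IL-18 and cuts gasdermin D (Gsdmd), whose fragments form pores in the plasma membrane and can end in pyroptosis, a lytic cell death. In macrophages the pathway is known to work in steps, of which the first is transcriptional priming of some components and of pro-IL-1β by Toll-like receptor ligands such as LPS. RNA levels speak to that first step only, since assembly, cleavage and release are protein events that were not measured here.

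All cells came from Il10-/- mice of the C57BL/6J background, so every group, the unstimulated controls included, lacked the animals' own IL-10. Per the methods of the study the 3 donors were 12-week-old males. Bone marrow was grown for 6 days with L929-conditioned medium, a source of macrophage growth factor. The cells then received (+)-JQ1 at 500 nM, recombinant IL-10 at 10 ng/mL or neither for 12 hours. LPS at 50 ng/mL, or PBS, followed for 4 hours, so that every culture was collected at 16 hours. (+)-JQ1 (JQ1 below) is a small molecule that occupies the bromodomains with which BET proteins bind acetylated histones. The 6 groups are named unstimulated, JQ1, IL-10, LPS, LPS + JQ1 and LPS + IL-10. The labels call cells given neither agent untreated, whereas the methods speak of a vehicle control, so which of these the LPS group received is not settled. Macrophages grown from marrow in culture are a model of recruited rather than tissue-resident cells, and a difference between bulk libraries cannot separate fewer expressing cells from less RNA per cell.

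The genes were placed on the build that the authors used (mm9, GENCODE annotation). Casp1 (mm9 chr9:5298517-5307265, plus strand) and Casp4 (mm9 chr9:5308828-5336783, plus strand) are neighbours with 1562 bases between them. Naip2 (mm9 chr13:100914018-100972047, minus strand) and Naip5 (mm9 chr13:100981694-101016278, minus strand) are neighbours too, 9646 bases apart. The other genes stand alone, with Nlrp3 at mm9 chr11:59355070-59380458, plus strand, Aim2 at mm9 chr1:175281010-175396171, plus strand, and Nlrc4 at mm9 chr17:74825635-74858448, minus strand. Mefv lies at mm9 chr16:3707215-3718124, minus strand, Pycard at mm9 chr7:135135617-135137381, minus strand, and Gsdmd at mm9 chr15:75692769-75697834, plus strand. Aim2 overlaps Cadm3 on the opposite strand, and the default settings of the counting step do not use strand, so reads of the shared stretch could belong to either gene. The expected counts of Aim2 were whole numbers in all 18 libraries, so no sign of split reads was seen.

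Promoter sequences were taken from RefSeq (build GRCm38.p6) as the 250 bases before an annotated start, and 9 of the 10 genes had an entry. Both strands were searched for 3 motifs of factors known from the LPS response. The NF-kB consensus was found before a start of 3 of the 9 genes (Nlrp3, Naip5 and Casp4) and in 3.9% of 32851 promoters. The units differ, since a gene counted with a match before any of its starts, whereas the share is of single promoters. Nlrp3 and Casp4 have 2 annotated starts each. Neither the ISRE (GAAANNGAAA, in 2.98% of promoters) nor AP-1 (TGANTCA, 6.75%) was found in any of the 9. A match describes letters and shows no binding, and no match concerns only this window. The promoters of Nlrp3, Casp1 and Casp4 are shown because Nlrp3 rose most with LPS and the adjoining caspase genes differ in this motif. Capitals mark the NF-kB consensus. In Nlrp3 it lies on the minus strand, 186 to 177 bases before the upstream of its 2 annotated starts. In Casp4 overlapping matches on both strands merge, 93 to 83 bases before the upstream of its 2 annotated starts. The same site of Casp4 lies 104 to 94 bases before its other start. The second start of Nlrp3 and the single start of Casp1 had none.
Nlrp3, chr11:59541319-59541568, plus strand: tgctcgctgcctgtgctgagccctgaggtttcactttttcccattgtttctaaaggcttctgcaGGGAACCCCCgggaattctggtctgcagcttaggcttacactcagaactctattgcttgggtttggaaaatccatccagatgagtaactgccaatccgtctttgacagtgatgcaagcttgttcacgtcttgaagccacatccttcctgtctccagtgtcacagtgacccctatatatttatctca
Casp1, chr9:5298267-5298516, plus strand: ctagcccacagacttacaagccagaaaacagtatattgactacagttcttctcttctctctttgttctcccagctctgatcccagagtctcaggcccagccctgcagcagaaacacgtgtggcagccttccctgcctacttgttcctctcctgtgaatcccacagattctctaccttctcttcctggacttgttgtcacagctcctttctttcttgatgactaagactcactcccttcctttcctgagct
Casp4, chr9:5308599-5308848, plus strand: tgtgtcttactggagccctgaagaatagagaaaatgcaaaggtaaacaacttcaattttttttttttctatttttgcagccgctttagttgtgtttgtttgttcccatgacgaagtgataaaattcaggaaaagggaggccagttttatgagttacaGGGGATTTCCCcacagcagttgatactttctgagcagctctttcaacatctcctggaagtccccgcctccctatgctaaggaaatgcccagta

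Naip2 and Naip5 are shown together because the genes share reads. Capitals mark a run of 34 bases that both promoters hold in full, which ends 6 bases before the start of Naip2 and 13 bases before that of Naip5. Windows of 50 bases (the read length) in the coding sequence were searched for in Naip1, Naip2, Naip5 and Naip6. Of all such windows, 20.4% in Naip2 and 39.1% in Naip5 were also found in another of these genes. Naip7, with fractional counts in 18 of 18 libraries, was not searched, so the shares could be higher. The expected counts of Naip2 and Naip5 were not whole numbers in any of the 18 libraries. Their values are therefore uncertain as to which gene gave the reads. Between Casp1 and Casp4 no such window was shared.
Naip2, chr13:100202123-100202372, minus strand: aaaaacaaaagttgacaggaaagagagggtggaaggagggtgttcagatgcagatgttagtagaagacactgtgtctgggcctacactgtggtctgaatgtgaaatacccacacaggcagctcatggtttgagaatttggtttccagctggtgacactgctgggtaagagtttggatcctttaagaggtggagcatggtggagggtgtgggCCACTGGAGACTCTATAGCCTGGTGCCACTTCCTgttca
Naip5, chr13:100247337-100247586, minus strand: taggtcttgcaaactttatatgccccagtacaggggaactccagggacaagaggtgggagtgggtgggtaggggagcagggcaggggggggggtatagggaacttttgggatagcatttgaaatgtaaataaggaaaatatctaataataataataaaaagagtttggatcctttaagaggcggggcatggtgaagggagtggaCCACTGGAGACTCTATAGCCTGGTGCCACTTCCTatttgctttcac

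Library totals lay between 6781952 and 28289498 expected counts. Counts below are normalised read counts, that is, expected counts divided by the DESeq2 size factor of the library, and values in a series are replicates 1, 2 and 3. All 6 macrophage markers were found, with a summed TPM of 12519 to 28282. The neutrophil marker Ly6g was at 0 in every library, and the 8 neutrophil markers summed to 7.5 to 87.3 TPM. Lists for B cells, T or NK cells, dendritic cells, mast cells or basophils, fibroblasts and erythroid cells summed to at most 8.66 TPM. Reads of Il10, the disrupted gene, remained at 37.0, 27.1 and 33.5 in unstimulated cells. They stood at 134, 155 and 177 with LPS + IL-10, at 118 to 164 with LPS + JQ1 and at 53.7 to 74.9 with LPS alone. Such reads do not show whether a functional product was made.

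LPS raised most of the pathway. Against unstimulated cells 8 of the 10 genes were higher and 1, Nlrc4, was lower (Wald test of DESeq2, Benjamini-Hochberg adjusted over all genes tested), with a median log2 fold change of 2.74 over the 10 genes. Of all 14965 genes tested, 31.6% were higher and 32.9% lower, with a median of -0.07. Nlrp3, Casp4 and Aim2 rose most, by 50.0-fold, 22.7-fold and 14.5-fold. The rises of Naip2 and Pycard were small and turn direction under other scalings, as given with those genes.

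JQ1 before LPS lowered 9 of the 10 genes against LPS and raised none, with a median log2 fold change of -1.15. The background was 32.9% lower and 24.4% higher. The Naip2 and Casp4 calls are lost under library totals and with limma on TPM. Mefv, Nlrp3 and Gsdmd fell most. IL-10 before LPS gave a different picture, with 4 genes higher (Nlrc4, Mefv, Pycard and Naip2) and 1 lower (Nlrp3) against backgrounds of 8.38% and 8.81%, and the Naip2 call is lost under several settings. Compared directly, LPS + JQ1 was below LPS + IL-10 for all 10 genes, where 31.6% of all genes tested were lower and 23.8% higher. Of the 11 alternative settings, 6 did not keep the Naip5 call of this comparison, 3 that of Aim2 and 2 that of Casp4. These comparisons share the LPS or the LPS + JQ1 libraries and are not independent of each other.

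Without LPS, JQ1 lowered 7 genes and raised 3 (Aim2, Naip2 and Naip5), with backgrounds of 23.7% and 21.9%. IL-10 alone raised 2 genes, Mefv and Casp4, and lowered none, where 1.8% of all genes tested were higher and 1.01% lower. The LPS + JQ1 cells stood above unstimulated cells for 4 genes and below for 4 (backgrounds 30.1% and 32.3%). In cells that had JQ1, LPS raised 5 genes and lowered 3 (backgrounds 27.6% and 31%). In cells that had IL-10, LPS raised 8 and lowered 1 (backgrounds 33.2% and 33.8%).

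**Figure D1:**
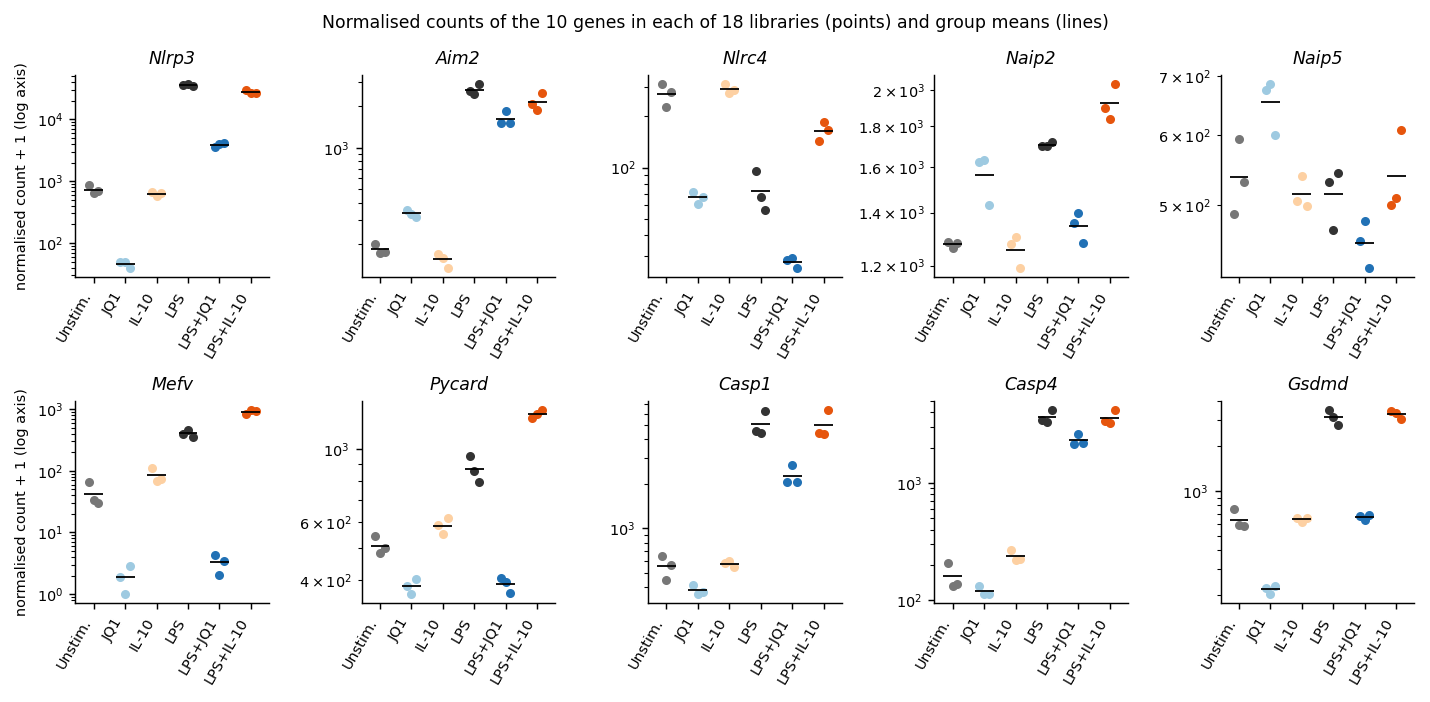
Normalised read counts of the 10 genes, one panel each, with the group on the x axis and the normalised count + 1 on a log y axis. Each point is 1 library (3 per group) and each line is a group mean. For Mefv the 6 libraries with JQ1, with or without LPS, lie at a count of 3.31 or below, under all 12 others, and for Nlrp3 the LPS + JQ1 libraries sit between unstimulated and LPS libraries.

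Nlrp3 encodes the sensor that answers many danger signals, among them ATP, crystals and pore-forming toxins, and is itself a known target of priming. The Nlrp3 counts of unstimulated libraries were 853, 644 and 688, those of JQ1 libraries 47.6, 48.3 and 38.5 and those of IL-10 libraries 662, 569 and 642. The Nlrp3 counts after stimulation were 36766, 37931 and 35225 for LPS alone, 3627, 3962 and 4142 for LPS + JQ1 and 29646, 26576 and 26926 for LPS + IL-10. All LPS libraries were far above all unstimulated ones, and the JQ1 libraries were the lowest of the 18. The rise with LPS was 50.0-fold (log2 5.64 ± 0.097, SE). JQ1 lowered the gene 16.4-fold at rest (log2 -4.03 ± 0.15 (SE), adjusted p = 3.43e-149) and 9.37-fold during LPS (log2 -3.23 ± 0.093 (SE), adjusted p = 1.6e-263). IL-10 lowered it 1.32-fold during LPS, with no overlap of the libraries (log2 -0.40 ± 0.092 (SE), adjusted p = 0.000166), although limma on log2(TPM + 1) did not pass (-0.29, adjusted p = 0.105). IL-10 alone gave -0.23 on the log2 scale (95% interval -0.42 to -0.032), adjusted p = 0.336, with overlapping libraries. LPS still raised Nlrp3 in cells with JQ1, by 87.4-fold, to a level 5.34-fold above unstimulated cells but 7.09-fold below LPS + IL-10.

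Aim2 encodes a sensor of double-stranded DNA in the cytosol and is known as an interferon-inducible gene. The Aim2 counts of unstimulated libraries were 199.8, 171 and 173, those of JQ1 libraries 353, 331 and 312 and those of IL-10 libraries 169, 158 and 133. The Aim2 counts after stimulation were 2570.4, 2444 and 2919.6 for LPS alone, 1505, 1862 and 1521 for LPS + JQ1 and 2079, 1891 and 2492 for LPS + IL-10. JQ1 libraries were above all unstimulated ones, yet LPS + JQ1 libraries were below all LPS ones. Aim2 was thus higher with JQ1 at rest, by 1.82-fold (log2 0.87 ± 0.14 (SE), adjusted p = 3.13e-09), and lower with JQ1 during LPS, by 1.62-fold (log2 -0.70 ± 0.12 (SE), adjusted p = 2.07e-08). LPS raised it 14.5-fold in cells without pretreatment (adjusted p = 5.37e-185) and 4.91-fold in cells with JQ1 (adjusted p = 1.45e-72). IL-10 during LPS gave -0.29 ± 0.12 (95% interval -0.53 to -0.06), adjusted p = 0.0714, with overlap, and the value passed without LPS + IL-10 replicate 3 (-0.41, adjusted p = 0.00445). LPS + JQ1 was 1.32-fold below LPS + IL-10 (log2 -0.40 ± 0.12 (SE), adjusted p = 0.00181), a call lost under library totals (-0.12, adjusted p = 0.433) and with limma on log2(TPM + 1) (-0.20, adjusted p = 0.309).

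Nlrc4 encodes the partner that oligomerises with NAIP sensors once these have bound a bacterial protein. The Nlrc4 counts of unstimulated libraries were 308, 227 and 279.5, those of JQ1 libraries 70.9, 60.1 and 65.9 and those of IL-10 libraries 311, 274 and 287. The Nlrc4 counts after stimulation were 94.7, 66.2 and 55.2 for LPS alone, 27.6, 28.4 and 24.6 for LPS + JQ1 and 142, 184 and 166 for LPS + IL-10. Nlrc4 was the gene of the 10 that LPS lowered, and the LPS + JQ1 libraries were the lowest of all 18. It fell 3.85-fold with LPS (log2 -1.94 ± 0.18 (SE), adjusted p = 5.22e-27), 4.17-fold with JQ1 (log2 -2.06 ± 0.17 (SE), adjusted p = 2.65e-31) and a further 2.64-fold with LPS + JQ1 against LPS (log2 -1.40 ± 0.24 (SE), adjusted p = 2.36e-08). With IL-10 before LPS it was 2.30-fold higher than with LPS alone, without overlap (log2 1.20 ± 0.19 (SE), adjusted p = 4.01e-09), and still below IL-10 without LPS (log2 -0.83 ± 0.16 (SE), adjusted p = 2.41e-07). LPS + JQ1 lay 10.2-fold below unstimulated cells (log2 -3.35 ± 0.22 (SE), adjusted p = 1.25e-50) and 6.07-fold below LPS + IL-10 (log2 -2.60 ± 0.23 (SE), adjusted p = 2.77e-29). IL-10 alone gave 0.086 (95% interval -0.20 to 0.37), which did not pass (adjusted p = 0.999).

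Naip2 encodes a sensor of the rod protein of bacterial secretion systems. The Naip2 counts of unstimulated libraries were 1284, 1262 and 1280.3, those of JQ1 libraries 1619, 1629 and 1432 and those of IL-10 libraries 1277, 1302 and 1191. The Naip2 counts after stimulation were 1701, 1699 and 1718 for LPS alone, 1357, 1399.6 and 1280.2 for LPS + JQ1 and 1896, 1838 and 2036 for LPS + IL-10. Naip2 moved little, and its group means differed by at most 0.61 on the log2 scale. It was higher with LPS by 1.34-fold (log2 0.42 ± 0.066 (SE), adjusted p = 6.72e-10), but under library totals the value turned to -0.51 and with limma on log2(TPM + 1) to -0.35, where the medians of 12251 genes were -1.0 and -0.63. JQ1 raised it at rest (log2 0.29 ± 0.065 (SE), adjusted p = 4.22e-05), a call lost under library totals (0.11, adjusted p = 0.189). JQ1 lowered it during LPS (log2 -0.34 ± 0.066 (SE), adjusted p = 8.92e-07), and under library totals the value was 0.035. The rise with IL-10 during LPS (log2 0.18 ± 0.065 (SE), adjusted p = 0.0425) did not pass with the quasi-likelihood test of edgeR (adjusted p = 0.131). Adjusted p was 0.067 without LPS + IL-10 replicate 1 and 0.192 without its replicate 3. It was 0.116, 0.112 and 0.0939 without LPS replicates 1, 2 and 3. LPS + JQ1 was below LPS + IL-10 (log2 -0.52 ± 0.066 (SE), adjusted p = 2.78e-14).

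Naip5 encodes a sensor of flagellin. The Naip5 counts of unstimulated libraries were 488, 594 and 530.2, those of JQ1 libraries 674, 685 and 599.9 and those of IL-10 libraries 505, 538 and 498. The Naip5 counts after stimulation were 530.2, 467 and 543 for LPS alone, 454, 478 and 423 for LPS + JQ1 and 499, 508 and 607 for LPS + IL-10. The libraries of most groups overlapped, and the JQ1 libraries were above the unstimulated ones. LPS gave -0.057 ± 0.10 (95% interval -0.26 to 0.15), adjusted p = 0.658, although under library totals the gene was called lower (-0.98, adjusted p = 2.24e-20, against the median of -1.0). LPS + JQ1 against LPS gave -0.18 (95% interval -0.39 to 0.026), adjusted p = 0.135, and turned to 0.20 under library totals and 0.11 with limma on log2(TPM + 1), neither of which passed. LPS + IL-10 against LPS gave 0.078 (95% interval -0.13 to 0.28), adjusted p = 0.729. JQ1 raised it at rest (log2 0.29 ± 0.10 (SE), adjusted p = 0.00939), a call lost without unstimulated replicate 1 (0.23, adjusted p = 0.0914) and without JQ1 replicate 2 (0.26, adjusted p = 0.0515), and under library totals (0.11, adjusted p = 0.384). In cells with JQ1, LPS lowered it (log2 -0.53 ± 0.10 (SE), adjusted p = 6.98e-07). LPS + JQ1 against LPS + IL-10 (log2 -0.26 ± 0.11 (SE), adjusted p = 0.0269) lost its call without LPS + JQ1 replicate 1 or 3 (adjusted p = 0.057 and 0.113), without LPS + IL-10 replicate 3 (adjusted p = 0.245) and with TMM factors (adjusted p = 0.195), and turned to 0.022 under library totals. LPS + JQ1 against unstimulated cells (log2 -0.24 ± 0.10 (SE), adjusted p = 0.0361) lost its call without unstimulated replicate 2 or 3 (adjusted p = 0.177 and 0.0798) and without LPS + JQ1 replicate 1 or 3 (adjusted p = 0.0778 and 0.148).

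Mefv encodes pyrin, a sensor that responds to the action of certain bacterial toxins. The Mefv counts of unstimulated libraries were 64.0, 32.1 and 29.5, those of JQ1 libraries 0.865, 0 and 1.83 and those of IL-10 libraries 111, 67.6 and 71.4. The Mefv counts after stimulation were 402, 465 and 355 for LPS alone, 3.31, 1.05 and 2.46 for LPS + JQ1 and 834, 967 and 933 for LPS + IL-10. The JQ1 libraries, with and without LPS, held almost no reads of the gene, and LPS + IL-10 held more than any other group. LPS raised Mefv 9.54-fold (log2 3.25 ± 0.25 (SE), adjusted p = 7.89e-37). IL-10 before LPS raised it 2.24-fold over LPS (log2 1.16 ± 0.22 (SE), adjusted p = 4.09e-06). At rest the unstimulated level exceeded that with JQ1 by 47.0-fold (95% exact counting interval 15.8 to 230.5, from 146 against 3 counts summed over the 3 libraries), and during LPS the level without JQ1 exceeded that with JQ1 by 183-fold (95% exact counting interval 83.7 to 499, from 1023 against 6 counts summed over the 3 libraries). These intervals cover counting error only. LPS + IL-10 exceeded LPS + JQ1 by 406-fold (95% exact counting interval 186 to 1107, from 2287 against 6 counts summed over the 3 libraries), and unstimulated cells exceeded LPS + JQ1 by 19.2-fold (95% exact counting interval 8.61 to 53.2, from 146 against 6 counts summed over the 3 libraries). All 4 differences passed the Wald test of DESeq2 (adjusted p = 1.7e-09, 1.15e-31, 5.52e-42 and 1.13e-10). Between LPS + JQ1 and JQ1 the ratio was 2.45-fold (95% exact counting interval 0.522 to 15.1, from 6 against 3 counts summed over the 3 libraries), and the difference did not pass (adjusted p = 0.292). The 6 and 3 counts cannot show whether LPS still acted on the gene.

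IL-10 alone raised Mefv 1.98-fold (log2 0.98 ± 0.26 (SE), adjusted p = 0.00938). The call was lost without unstimulated replicate 2 (0.86, adjusted p = 0.0793), without unstimulated replicate 3 (0.73, adjusted p = 0.166), without IL-10 replicate 1 (0.70, adjusted p = 0.233), and with limma on log2(TPM + 1) (adjusted p = 0.0671). The IL-10 libraries did not overlap the unstimulated ones, but unstimulated replicate 1 held about as many reads as the 2 lower IL-10 libraries. Neutrophils are known for strong Mefv expression, and the neutrophil markers were lower with JQ1 as well. The list summed to 33.8, 24.3 and 87.3 TPM in the unstimulated libraries and to 12.2, 7.5 and 17.5 in those with JQ1. After stimulation it summed to 41.6, 35.9 and 51.7 TPM for LPS alone, 13.3, 17.2 and 30.1 for LPS + JQ1 and 43.2, 31.5 and 70.0 for LPS + IL-10. Of the 5 markers tested, 3 were lower and none higher with JQ1 at rest and again during LPS, while Ly6g stood at 0 throughout. All genes tested gave 23.7% lower and 21.9% higher at rest, and 32.9% lower and 24.4% higher during LPS. The part of these markers in the Mefv result was not tested.

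Pycard encodes ASC, the adaptor that links several sensors to caspase-1 and gathers into a single speck per cell. The Pycard counts of unstimulated libraries were 542, 482 and 499, those of JQ1 libraries 383, 362 and 401 and those of IL-10 libraries 587, 549 and 618. The Pycard counts after stimulation were 952, 856 and 796 for LPS alone, 406, 395 and 366 for LPS + JQ1 and 1239.6, 1278 and 1312 for LPS + IL-10. LPS + IL-10 libraries were the highest of the 18, and the JQ1 libraries overlapped those with LPS + JQ1. LPS raised Pycard 1.70-fold (log2 0.76 ± 0.084 (SE), adjusted p = 3.49e-19), but the value turned to -0.16 under library totals and -0.0071 with limma on log2(TPM + 1), neither of which passed. JQ1 lowered it 1.33-fold at rest (log2 -0.42 ± 0.088 (SE), adjusted p = 1.13e-05) and 2.22-fold during LPS (log2 -1.15 ± 0.088 (SE), adjusted p = 3.71e-38). IL-10 before LPS raised it 1.47-fold over LPS (log2 0.56 ± 0.08 (SE), adjusted p = 1.17e-10), which left LPS + JQ1 3.28-fold below LPS + IL-10 (log2 -1.71 ± 0.086 (SE), adjusted p = 2.4e-86). LPS gave no detectable rise in cells with JQ1, at 0.027 on the log2 scale (95% interval -0.15 to 0.21), adjusted p = 0.825, and in them Pycard was below unstimulated cells (log2 -0.39 ± 0.09 (SE), adjusted p = 3.53e-05). Under library totals LPS + JQ1 was called lower than JQ1 (-0.35, adjusted p = 0.00071, against a median of -0.45). With limma on log2(TPM + 1) it was called lower too (-0.23, adjusted p = 0.0377). IL-10 alone gave 0.20 (95% interval 0.035 to 0.36), adjusted p = 0.285, although its libraries did not overlap the unstimulated ones.

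Casp1 encodes caspase-1, the protease that matures IL-1β and IL-18. The Casp1 counts of unstimulated libraries were 646, 446 and 564, those of JQ1 libraries 412, 357 and 366 and those of IL-10 libraries 580.3, 603 and 544. The Casp1 counts after stimulation were 4538, 4448 and 6203 for LPS alone, 2057, 2697 and 2061 for LPS + JQ1 and 4452, 4329 and 6332 for LPS + IL-10. Every LPS + JQ1 library lay between the unstimulated and the LPS libraries, and the LPS and LPS + IL-10 libraries overlapped, with replicate 3 highest in both. LPS raised Casp1 9.12-fold (log2 3.19 ± 0.17 (SE), adjusted p = 9.96e-79). JQ1 lowered it 2.23-fold during LPS (log2 -1.16 ± 0.17 (SE), adjusted p = 1.51e-11) and 1.47-fold at rest (log2 -0.55 ± 0.17 (SE), adjusted p = 0.00422), the latter lost without unstimulated replicate 1 (-0.43, adjusted p = 0.0562). LPS + JQ1 stayed 4.09-fold above unstimulated cells (log2 2.03 ± 0.17 (SE), adjusted p = 2.13e-32). For IL-10 the difference was -0.0065 during LPS (95% interval -0.33 to 0.32), adjusted p = 0.987, and 0.054 at rest (95% interval -0.28 to 0.39), adjusted p = 0.999.

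Casp4 encodes mouse caspase-11, which binds LPS in the cytosol and cuts gasdermin D without a sensor of the NLR family. The Casp4 counts of unstimulated libraries were 208, 132 and 137, those of JQ1 libraries 131, 112 and 112 and those of IL-10 libraries 267, 217 and 224. The Casp4 counts after stimulation were 3458, 3325 and 4194 for LPS alone, 2141, 2600.1 and 2196 for LPS + JQ1 and 3393, 3236 and 4179 for LPS + IL-10. All libraries with LPS were far above all without it, and the mean with LPS + JQ1 was 63.2% of that with LPS, beside 61.6% for Aim2 and 44.9% for Casp1. LPS raised it 22.7-fold (log2 4.51 ± 0.16 (SE), adjusted p = 5.11e-176), and JQ1 lowered it 1.58-fold during LPS (log2 -0.66 ± 0.15 (SE), adjusted p = 1.65e-05). That fall was smaller and did not pass under library totals (-0.29, adjusted p = 0.101) or with limma on log2(TPM + 1) (-0.36, adjusted p = 0.151). LPS still raised Casp4 19.5-fold in cells with JQ1 (log2 4.29 ± 0.16 (SE), adjusted p = 1.2e-151). IL-10 during LPS gave -0.022 (95% interval -0.31 to 0.26), adjusted p = 0.953, with overlapping libraries. At rest JQ1 lowered Casp4 (log2 -0.44 ± 0.17 (SE), adjusted p = 0.0264) and IL-10 raised it (log2 0.56 ± 0.16 (SE), adjusted p = 0.0277), but both calls were fragile. Without unstimulated replicate 1, the highest of its group, the JQ1 difference was -0.19 (adjusted p = 0.425), and it also failed without JQ1 replicates 2 and 3 (adjusted p = 0.0866 and 0.0948). The IL-10 difference failed without unstimulated replicate 2 or 3 (adjusted p = 0.189 and 0.263), without IL-10 replicate 1 (adjusted p = 0.326) and with the quasi-likelihood test of edgeR (adjusted p = 0.0537).

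Gsdmd encodes the protein whose cleaved fragment forms the pore. The Gsdmd counts of unstimulated libraries were 755, 587 and 583, those of JQ1 libraries 224, 202 and 229 and those of IL-10 libraries 662, 615 and 653. The Gsdmd counts after stimulation were 3491, 3139 and 2776 for LPS alone, 682, 640.3 and 687 for LPS + JQ1 and 3445, 3317 and 3025 for LPS + IL-10. The LPS + JQ1 libraries fell within the range of the unstimulated ones, and JQ1 alone gave the lowest counts. LPS raised Gsdmd 4.87-fold (log2 2.28 ± 0.11 (SE), adjusted p = 2.24e-102). JQ1 lowered it 4.68-fold during LPS (log2 -2.23 ± 0.11 (SE), adjusted p = 4.23e-96) and 2.95-fold at rest (log2 -1.56 ± 0.12 (SE), adjusted p = 2.27e-38), and LPS raised it 3.06-fold from that lower base (log2 1.62 ± 0.12 (SE), adjusted p = 1.08e-41). LPS + JQ1 against unstimulated cells gave 0.056 (95% interval -0.16 to 0.27), adjusted p = 0.688, and under library totals it was -0.50 (adjusted p = 9.32e-06, against a median of -0.59). IL-10 during LPS gave 0.057 (95% interval -0.14 to 0.26), adjusted p = 0.808.

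**Figure D2:**
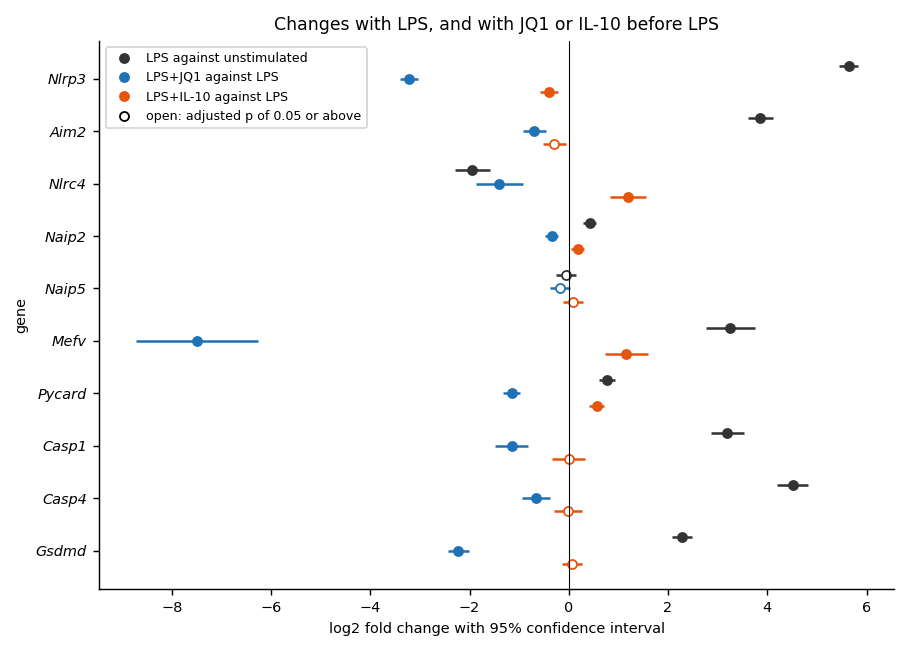
Log2 fold changes (x axis) of the 10 genes (y axis) with LPS against unstimulated cells, with LPS + JQ1 against LPS and with LPS + IL-10 against LPS. Bars are 95% confidence intervals from DESeq2 and open points did not pass. The LPS + JQ1 points lie left of 0 for all 10 genes, from -7.50 for Mefv to -0.18 for Naip5, which did not pass, while the LPS + IL-10 points lie between -0.40 for Nlrp3 and 1.20 for Nlrc4.

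The effect of JQ1 was then compared between resting and stimulated cells with an interaction term, whose value is the log2 effect of JQ1 during LPS minus that at rest. It passed for 7 genes, 1 positive and 6 negative, where 17.7% of all genes tested were positive and 23.8% negative. Aim2 differed most, at -1.57 ± 0.18 (SE, adjusted p = 2.78e-16, Wald test of DESeq2), since JQ1 raised it at rest and lowered it during LPS. Naip2 had opposite directions too (log2 -0.63 ± 0.093 (SE), adjusted p = 1.55e-10). Nlrp3 was the positive one, at 0.81 ± 0.18 (adjusted p = 3.86e-05), as JQ1 lowered it proportionally more at rest. Pycard (log2 -0.74 ± 0.12 (SE), adjusted p = 2.77e-08), Gsdmd (log2 -0.67 ± 0.16 (SE), adjusted p = 0.000123), Naip5 (log2 -0.47 ± 0.15 (SE), adjusted p = 0.00392) and Casp1 (log2 -0.60 ± 0.24 (SE), adjusted p = 0.0308) were negative. Casp4 gave -0.22 (95% interval -0.66 to 0.23), Mefv -1.96 (95% interval -4.07 to 0.14) and Nlrc4 0.66 (95% interval 0.077 to 1.24), with adjusted p = 0.469, 0.133 and 0.0613.

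Most of these interactions depended on the scaling. Under library totals the median interaction of 12251 genes moved from -0.048 to 0.51, and the values became -0.077 for Naip2, -0.18 for Pycard, -0.11 for Gsdmd, -0.051 for Casp1 and 0.082 for Naip5, none of which passed. Those of Aim2 and Nlrp3 passed under every scaling tried, with limma on TPM as well. Nlrc4 passed under library totals (1.21, adjusted p = 0.000243), with TMM factors, and without unstimulated replicate 2 (adjusted p = 0.0265) or LPS replicate 1 (adjusted p = 0.0114). Mefv passed with limma on log2(TPM + 1) (-2.01, adjusted p = 3.26e-05) and on log2(TPM + 0.1) (-2.16, adjusted p = 0.000795), and with none of the other alternatives that kept all libraries. With limma on log2(TPM + 1) or log2(TPM + 0.1), Naip2, Pycard, Gsdmd, Casp1 and Naip5 did not pass either. With edgeR, Naip5 (-0.34, adjusted p = 0.0539) and Casp1 (-0.46, adjusted p = 0.0974) failed. Casp1 failed with TMM factors too (-0.47, adjusted p = 0.105). Casp1 failed without unstimulated replicate 2 or 3 (adjusted p = 0.115 and 0.0514), JQ1 replicate 1 (0.0854), LPS replicate 3 (0.125), and LPS + JQ1 replicate 1 or 3 (0.0785 and 0.0759).

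**Figure D3:**
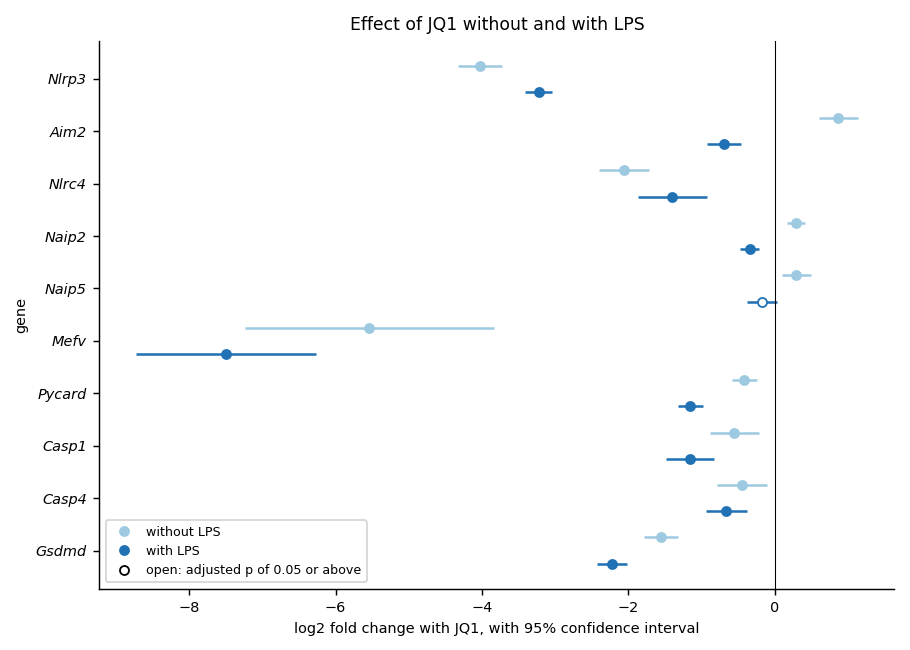
Log2 fold change with JQ1 (x axis) of the 10 genes (y axis), without LPS (pale) and with LPS (dark), with 95% confidence intervals from DESeq2. Open points did not pass. Aim2, Naip2 and Naip5 lie right of 0 without LPS and left of it with LPS, while the other 7 genes lie left of 0 in both, Nlrp3 at -4.03 and -3.23.

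For IL-10 the interaction passed for 2 genes, both positive, and for no negative one, with backgrounds of 4% and 3.44%. Nlrc4 gave 1.11 ± 0.24 (SE, adjusted p = 0.000111), which held in every setting tried. Pycard gave 0.36 ± 0.11 (adjusted p = 0.0249) and was fragile. It failed without unstimulated replicate 1 (adjusted p = 0.133), IL-10 replicate 1 or 2 (0.0714 and 0.108), LPS replicate 2 or 3 (0.0668 and 0.107), and LPS + IL-10 replicate 2 or 3 (0.0655 and 0.0589). Casp4 did not pass (-0.58, adjusted p = 0.0882) but did so without unstimulated replicate 1 (-0.83, adjusted p = 0.00185) or LPS + IL-10 replicate 3 (-0.70, adjusted p = 0.0156).

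Values over all genes depended on the scaling as well. Between median-of-ratios scaling and library totals, the median log2 fold change of 12251 genes with LPS shifted from -0.067 to -1.0, and the share of higher genes among those called went from 49.0% to 20.1%. For LPS + JQ1 against LPS the median went from -0.099 to 0.28 and the share from 42.5% to 64.9%, and for LPS + IL-10 against LPS the share went from 48.7% to 71.1%. With JQ1 at rest the share went from 48.0% to 26.8%, and with LPS + JQ1 against LPS + IL-10 from 42.9% to 61.2%. With IL-10 at rest it moved little, from 64.0% to 61.6%, but was 78.4% with limma on log2(TPM + 1). Nlrp3, Aim2, Mefv, Casp1, Casp4 and Gsdmd kept their rise with LPS, and Nlrp3, Aim2, Nlrc4, Mefv, Pycard, Casp1 and Gsdmd their fall with LPS + JQ1 against LPS, under each of the 11 alternatives.

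**Figure D4:**
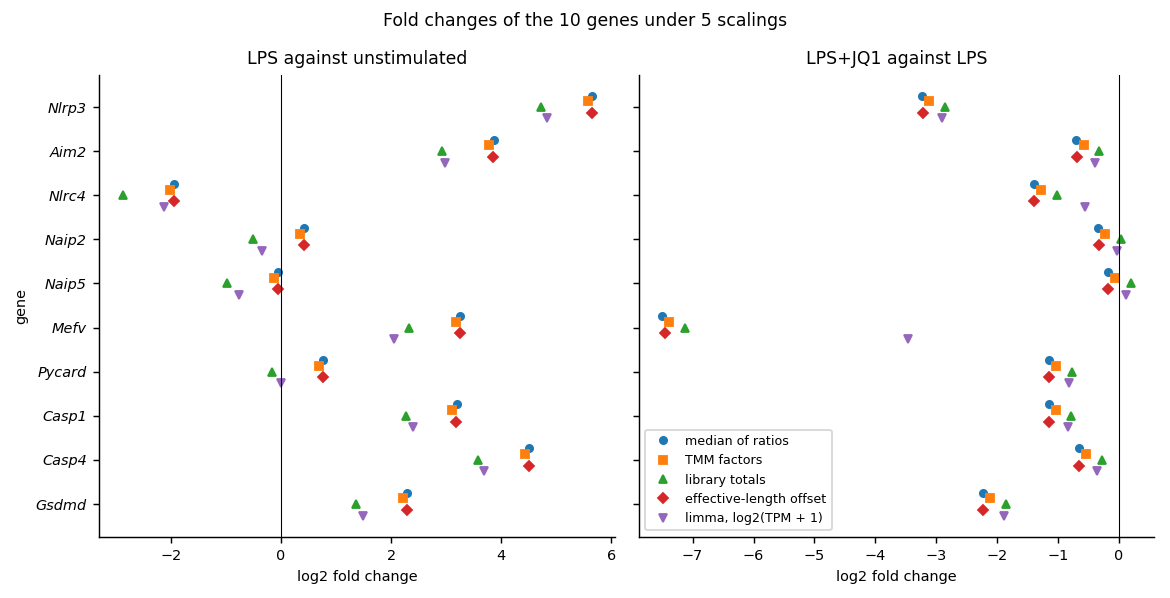
Log2 fold changes (x axis) of the 10 genes (y axis) under 5 scalings, for LPS against unstimulated cells (left) and LPS + JQ1 against LPS (right). Each marker is 1 scaling. On the left, library totals put Naip2 at -0.51 and Pycard at -0.16, on the other side of 0 from the median of ratios, while Nlrp3 stays right of 0 under all 5.

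Between genes, levels were compared as TPM, which is scaled for gene length (mean ± SD, n = 3). In unstimulated cells Casp1 (57.5 ± 12.0) and Gsdmd (55.6 ± 9.37) led and overlapped, followed by Naip2 (38.1 ± 1.64) and Pycard (35.8 ± 3.07), which also overlapped. Nlrp3 (26.1 ± 4.42) overlapped Casp4 (17.5 ± 4.94), and Casp4 overlapped Naip5 (14.4 ± 1.05). Aim2 (10.6 ± 1.14) and Nlrc4 (10.2 ± 1.83) overlapped, and Mefv (1.94 ± 0.935) was lowest. In resting cells Casp1, the effector and the adaptor were thus above most sensors, while Casp4 lay below Naip2 and overlapped Nlrp3 and Naip5. With LPS the order changed. Nlrp3 led at 765 ± 41.8 TPM, ahead of Casp1 (309 ± 83.7) and Casp4 (235 ± 47.2), which overlapped, then Gsdmd (157 ± 6.97) and Aim2 (90.6 ± 14.8). Pycard (35.6 ± 0.998), Naip2 (29.7 ± 2.37), Mefv (10.9 ± 1.21), Naip5 (8.06 ± 1.02) and Nlrc4 (1.56 ± 0.335) followed without overlap.

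With LPS + IL-10 the order of the 10 genes was that of LPS, with Nlrp3 first at 624 ± 21.7 TPM and Mefv at 26.6 ± 3.54. With LPS + JQ1, Casp4 (183 ± 27.2) and Casp1 (170.1 ± 34.5) led and overlapped, and Nlrp3 came next at 101 ± 10.1. Aim2 (68.8 ± 11.4) stood above Gsdmd (41.7 ± 0.958), the reverse of LPS alone. With JQ1 alone Naip2 (40.3 ± 2.32) was highest and Nlrp3 (1.39 ± 0.147) was below every other member but Mefv. With IL-10 alone Casp1 (62.1 ± 1.66) and Gsdmd (57.9 ± 3.87) led, as in unstimulated cells. The 10 genes together summed to 268 ± 36.6 TPM in unstimulated, 161 ± 10.1 in JQ1 and 291 ± 14.2 in IL-10 libraries. The sum after stimulation was 1643 ± 172 TPM for LPS alone, 622 ± 83.2 for LPS + JQ1 and 1594 ± 194 for LPS + IL-10. The LPS + JQ1 libraries stood above all without LPS and below all others with LPS.

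The ratio of Nlrp3 to Pycard in TPM was 0.726 ± 0.0626 in unstimulated, 0.0597 ± 0.00984 in JQ1 and 0.541 ± 0.0248 in IL-10 libraries. After stimulation this ratio was 21.5 ± 1.70 for LPS alone, 5.13 ± 0.627 for LPS + JQ1 and 11 ± 0.945 for LPS + IL-10. Nlrp3 RNA thus went from below to above Pycard RNA with LPS, with no agent, with JQ1 and with IL-10. The ratio of Casp1 to Casp4 was 3.35 ± 0.488 in unstimulated, 3.03 ± 0.0649 in JQ1 and 2.33 ± 0.284 in IL-10 libraries. It was lower after stimulation, at 1.30 ± 0.0851 for LPS alone, 0.927 ± 0.0491 for LPS + JQ1 and 1.32 ± 0.104 for LPS + IL-10. A ratio within a library does not depend on how libraries are scaled. On the scale of normalised counts, where unstimulated cells are at 0% and LPS cells at 100%, the LPS + JQ1 mean lay at 1.13% for Gsdmd, 8.86% for Nlrp3, 38.1% for Casp1, 58.8% for Aim2 and 61.5% for Casp4. Of the other genes that LPS raised, Naip2 lay at 16.4%, and Mefv at -10.8% and Pycard at -33.0% were below unstimulated cells. On this scale genes raised by LPS thus differed widely in the share of the rise that was left, which is a description without a test between genes. Unlike the ratios, these positions depend on the median-of-ratios scaling. Under library totals LPS gave log2 changes of -0.51 for Naip2 and -0.16 for Pycard, so there was no rise to share out. Gsdmd with LPS + JQ1 was then below unstimulated cells (log2 -0.50).

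**Figure D5:**
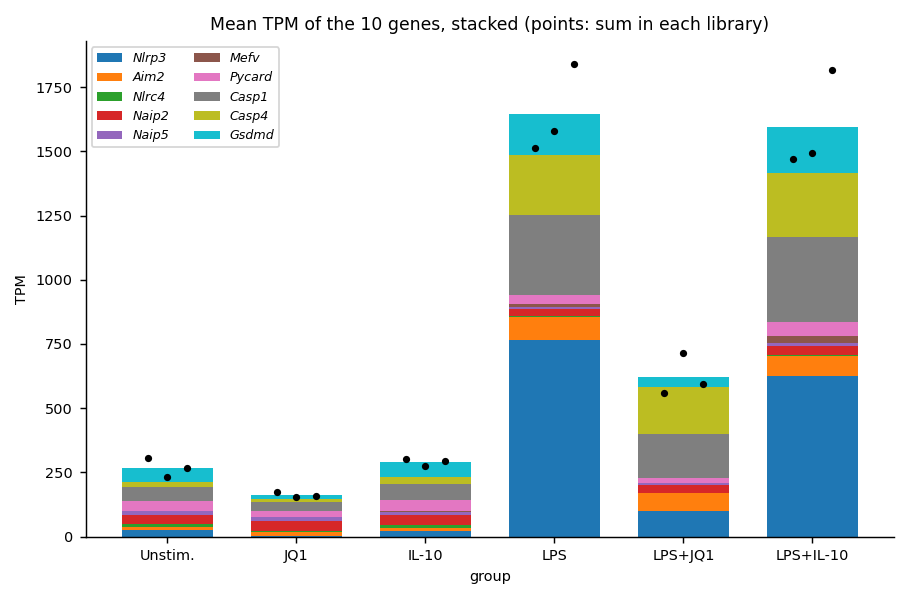
TPM of the 10 genes by group, with stacked bars for the means of 3 libraries and points for the sum in each library. The sum is 161 TPM with JQ1 and 1643 with LPS, where Nlrp3 takes the largest share, and 622 with LPS + JQ1, where Casp1 and Casp4 do.

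The cytokine substrates and the related alarmin were read beside the members. Il1b encodes pro-IL-1β, Il18 pro-IL-18 and Il1a the alarmin IL-1α. The Il1b counts of unstimulated libraries were 282, 62.6 and 77.8, those of JQ1 libraries 14.7, 10.8 and 14.7 and those of IL-10 libraries 301, 163 and 206. The Il1b counts after stimulation were 142152, 142897 and 157530.0 for LPS alone, 12917, 11785 and 12666 for LPS + JQ1 and 91893, 70796 and 79885 for LPS + IL-10. LPS raised it by orders of magnitude, and unstimulated replicate 1 stood well above the other two. The log2 change with LPS was 10.02 ± 0.43 (SE, adjusted p = 6.41e-119), and JQ1 lowered the LPS level 11.8-fold (log2 -3.57 ± 0.42 (SE), adjusted p = 2.69e-16). IL-10 during LPS gave -0.87 (95% interval -1.70 to -0.037), adjusted p = 0.164, without overlap. The fit on only the 2 groups compared gave -0.86 (adjusted p = 6.21e-10) and the quasi-likelihood test of edgeR -0.85 (adjusted p = 0.0195). Without unstimulated replicate 1, IL-10 at rest was called higher (1.65, adjusted p = 7.38e-12), the JQ1 interaction was called negative (-1.15, adjusted p = 0.00295) and so was the IL-10 interaction (-2.52, adjusted p = 1.32e-18). With the replicate block the IL-10 interaction passed (-1.67, adjusted p = 0.0196).

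The Il18 counts of unstimulated libraries were 23.9, 22.0 and 36.9, those of JQ1 libraries 12.1, 10.8 and 13.7 and those of IL-10 libraries 26.7, 38.4 and 37.4. The Il18 counts after stimulation were 683, 708 and 1146 for LPS alone, 145, 163 and 162 for LPS + JQ1 and 621, 401 and 814 for LPS + IL-10. LPS raised it (log2 4.89 ± 0.28 (SE), adjusted p = 4.04e-65) and JQ1 lowered it during LPS (log2 -2.43 ± 0.25 (SE), adjusted p = 2.34e-21), without overlap in either. At rest JQ1 lowered it (log2 -1.22 ± 0.36 (SE), adjusted p = 0.00262), not passing without unstimulated replicate 3 (adjusted p = 0.0603). The JQ1 interaction (log2 -1.22 ± 0.44 (SE), adjusted p = 0.0169) failed without LPS replicate 3, JQ1 replicate 3 or unstimulated replicate 1 (adjusted p = 0.0659, 0.0565 and 0.0525). With all libraries kept, this interaction failed under library totals (-0.66, adjusted p = 0.213) and with edgeR (-1.06, adjusted p = 0.121). It also failed with limma on log2(TPM + 1) and log2(TPM + 0.1) (adjusted p = 0.0526 and 0.15). IL-10 during LPS gave -0.46 (95% interval -0.94 to 0.014), adjusted p = 0.209, and passed without LPS + IL-10 replicate 3 (-0.72, adjusted p = 0.0203). Il1a counts were 40.9, 5.07 and 15.4 in unstimulated cells and 48430.1, 44768 and 71189.8 with LPS. LPS + JQ1 libraries held 3380.4, 3247 and 3018, and LPS + IL-10 libraries 18430.4, 5773 and 10873. Its expected counts were not whole, so part of its reads also matched other genes. It was lower than with LPS under both pretreatments (log2 -4.09 ± 0.56 (SE), adjusted p = 1.72e-12 for JQ1, and log2 -2.23 ± 0.56 (SE), adjusted p = 9e-04 for IL-10). IL-10 at rest did not pass for Il1a (-2.02, adjusted p = 0.069), but did with the replicate block (-1.92, adjusted p = 0.0346) and without unstimulated replicate 2 (-2.41, adjusted p = 0.00889).

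Of 11 other sensor genes, 10 could be tested with LPS, and 4 were higher and 4 lower, beside 31.6% and 32.9% of all genes. With LPS + JQ1 against LPS 1 was higher and 7 were lower of 10, with JQ1 at rest 1 was higher and 6 were lower of 9, and with LPS + IL-10 against LPS none of 8 passed. IL-10 at rest raised 1 of 9. The backgrounds, higher and lower, are 24.4% and 32.9%, 21.9% and 23.7%, and 8.38% and 8.81% for the comparisons in that order, and 1.8% higher for IL-10 at rest. Genes said to have risen or fallen most of this list or the next were ranked among those that passed and whose mean normalised count reached 100. Naip1 and Naip6 share reads with the Naip members, and Nlrp12 was at 0 in all libraries. Zbp1, a sensor of Z-form nucleic acids, counted 245, 59.2 and 62.3 in unstimulated cells and 8.65, 12.8 and 7.33 with JQ1. After stimulation it counted 6461, 6461 and 5931 for LPS alone, 659, 669 and 700.4 for LPS + JQ1 and 5573, 5364 and 4912 for LPS + IL-10. It had the largest rise of the list with LPS (log2 5.67 ± 0.40 (SE), adjusted p = 4.52e-44) and the largest fall with LPS + JQ1 against LPS (log2 -3.22 ± 0.40 (SE), adjusted p = 3.46e-15). Unstimulated replicate 1 was high for Zbp1 as for Nlrp3, Mefv, Casp4 and Il1b, and for Ifi203, Irf1 and Mlkl, whose counts are given below. All comparisons with unstimulated cells, and the interactions, include this library. Why it stood high for these genes was not tested. Nlrp1b, a sensor activated by proteolytic cleavage, fell most with LPS, from 512, 519 and 454 to 77.8, 63.1 and 52.8 (log2 -2.95 ± 0.17 (SE), adjusted p = 8.26e-67), and with JQ1 alone, to 47.6, 23.7 and 27.5 (log2 -3.89 ± 0.19 (SE), adjusted p = 2.42e-94). Its rise with IL-10 at rest (log2 0.42 ± 0.13 (SE), adjusted p = 0.0392) failed with the replicate block (adjusted p = 0.0926) and without any 1 of the 6 libraries, between adjusted p = 0.0858 without IL-10 replicate 3 and 0.319 without IL-10 replicate 1. Its JQ1 interaction was positive (log2 1.17 ± 0.38 (SE), adjusted p = 0.006) but failed without LPS + JQ1 replicate 1 (adjusted p = 0.0778).

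Dhx33, an RNA helicase linked to NLRP3, was the sensor-list gene that rose most with JQ1. It counted 252, 239.9 and 215 with LPS and 579.8, 540.2 and 551 with LPS + JQ1 (log2 1.24 ± 0.10 (SE), adjusted p = 1.18e-33), and was higher with JQ1 at rest too (log2 0.46 ± 0.091 (SE), adjusted p = 2.63e-06). The interferon-inducible Ifi203 rose most from unstimulated cells to LPS + JQ1 (log2 3.57 ± 0.34 (SE), adjusted p = 1.5e-25), from 702, 274 and 328 to 4747, 6086 and 4743. The JQ1 interaction of Ifi204, a related gene, was negative (log2 -0.83 ± 0.24 (SE), adjusted p = 0.00185) and did not pass under library totals (-0.27, adjusted p = 0.36).

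Among 27 regulators and effectors, 13 were higher and 7 lower of 24 tested with LPS, beside the 31.6% and 32.9% of all genes. With LPS + JQ1 against LPS 6 were higher and 15 lower of 24, with LPS + IL-10 against LPS 2 were higher and 5 lower of 23, with JQ1 at rest 4 were higher and 9 lower of 24, and with IL-10 at rest 1 was higher of 23. All genes gave 24.4% and 32.9%, 8.38% and 8.81%, 21.9% and 23.7%, and 1.8% in these. Near the background were thus the 6 higher with LPS + JQ1, the 2 higher with LPS + IL-10 and the 4 higher with JQ1 at rest. The 7 lower with LPS were near it too. Trim31 was at 0 throughout, and Gbp5 and Gbp2 had no adjusted p in any comparison and were not ranked. Their fitted log2 changes were 9.79 and 7.93 with LPS, 9.43 and 7.71 from unstimulated cells to LPS + JQ1, and -3.26 and -2.86 with JQ1 at rest. Among the genes ranked, Mlkl, the pore-former of necroptosis, rose most with LPS, from 156, 98.1 and 101 to 3376, 3229 and 3314 (log2 4.78 ± 0.12, SE). P2rx7, the ATP-gated channel whose opening activates NLRP3, fell most with LPS, from 1238, 1311 and 1302 to 271, 326 and 307 (log2 -2.08 ± 0.087 (SE), adjusted p = 6.1e-125). Channel RNA thus fell in the same comparison in which Nlrp3 rose. Txnip, a thioredoxin-binding protein, rose most with JQ1, from 5513, 6006 and 6153 to 22134, 22626 and 23143 at rest (log2 1.94 ± 0.053 (SE), adjusted p = 1.83e-289), and from 2749, 2646 and 2713 to 6506, 6604 and 6396 during LPS (log2 1.27 ± 0.056 (SE), adjusted p = 1.67e-112).

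Pstpip1, whose product binds pyrin, fell most with JQ1 and rose most with IL-10 among the genes ranked in its list, which leave out Gbp5 and Gbp2. The Pstpip1 counts of unstimulated libraries were 822, 734 and 717, those of JQ1 libraries 179, 172 and 167 and those of IL-10 libraries 1196, 1113 and 1151. The Pstpip1 counts after stimulation were 366, 476 and 320.4 for LPS alone, 61.8, 69.5 and 73.9 for LPS + JQ1 and 935, 1271 and 840.3 for LPS + IL-10. With IL-10 it was higher at rest (log2 0.61 ± 0.14 (SE), adjusted p = 0.00248) and during LPS (log2 1.38 ± 0.15 (SE), adjusted p = 5.25e-18), and with JQ1 lower at rest (log2 -2.14 ± 0.16 (SE), adjusted p = 7.42e-41) and during LPS (log2 -2.51 ± 0.18 (SE), adjusted p = 1.05e-41), as Mefv was. Unlike Mefv, Pstpip1 was lower with LPS than without it (log2 -0.96 ± 0.15 (SE), adjusted p = 4.87e-10). Its IL-10 interaction was positive (log2 0.78 ± 0.21 (SE), adjusted p = 0.00465). Irf8, a transcription factor of the myeloid lineage known to act on Naip genes, fell most with LPS + IL-10 against LPS, from 18417, 19337 and 18685 to 9619, 5416 and 5572 (log2 -1.45 ± 0.16 (SE), adjusted p = 9e-18), with a negative interaction (log2 -1.46 ± 0.23 (SE), adjusted p = 1.54e-08). Irf1, an interferon response factor, rose most of the genes ranked from unstimulated cells to LPS + JQ1, from 1402, 611 and 599 to 8516, 8459.5 and 8952 (log2 3.31 ± 0.27 (SE), adjusted p = 4.3e-34). In the JQ1 interaction Ripk3, a necroptosis kinase, was most positive of the genes ranked (log2 1.25 ± 0.29 (SE), adjusted p = 7.65e-05) and Trim30a most negative (log2 -1.66 ± 0.27 (SE), adjusted p = 5.88e-09).

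Macrophage markers moved with JQ1 as well. Of 6, 1 was higher and 4 lower with LPS + JQ1 against LPS, and 2 were higher and 3 lower with JQ1 at rest. Itgam, which encodes CD11b, counted 10762, 11453 and 10782 with LPS and 2177, 2352 and 2309 with LPS + JQ1 (log2 -2.27 ± 0.065 (SE), adjusted p = 1.5e-261), and 10985, 10061 and 9365 in unstimulated cells and 3137, 3406 and 3240.2 with JQ1 (log2 -1.64 ± 0.064 (SE), adjusted p = 1.74e-140). The backgrounds of all genes for these are 24.4% and 32.9% with LPS + JQ1 and 21.9% and 23.7% at rest. The summed TPM of the list was higher with LPS + JQ1 (17912 to 20514) than with LPS (12519 to 13664), and most of it was Lyz2, with a mean of 15998 against 10214 TPM. The other 5 markers overlapped, at 2775 to 3013 and 2798 to 3127 TPM. Their part in the results was not tested.

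Likeness of pattern was measured as the root mean square difference between centred log2 means over the 6 groups, among 8377 genes whose mean normalised count reached 100, with 0 for identical patterns. Nlrp3 was nearest to Zbp1 (0.224) and Gm12250 (0.354), Casp4 to Fas (0.158) and Sod2 (0.207), and Casp1 to Apobec3 (0.105) and Birc3 (0.105). Gsdmd was nearest to Ly6e (0.102) and Tnfrsf14 (0.169), Aim2 to Etnk1 (0.150) and Sh3bgrl2 (0.195), and Pycard to Dpysl2 (0.0973) and Ctdnep1 (0.110). Naip2 was nearest to March7 (0.0401) and Scamp1 (0.0624) and Naip5 to Nrip1 (0.0641), genes that moved little. Nlrc4 was nearest to Hfe (0.239) and Rrad (0.247). Mefv had no close match, with F10 (0.632) and Clec4a1 (0.748) as its nearest. Among the 10 genes the nearest pair was Naip2 and Naip5 (0.239), which share reads, followed by Pycard with Naip2 (0.486) and by Aim2 with Casp1 (0.600). The farthest pair was Nlrp3 and Nlrc4 (3.70), which LPS moved in opposite directions.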

How the data were processed

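RNA of 18 libraries was measured by RNA-seq, and the group and replicate number of each library came from its title. Per the methods of the study, RNA depleted of ribosomal RNA was sequenced as paired 50-base reads, which the authors aligned to mm9 with STAR and quantified with RSEM 1.2.31, both run with their defaults. In the expected counts the authors deposited, reads with several possible genes are split between these, so 5.40% to 6.63% of the values in a library were fractional. They were rounded here. TPM values, scaled for gene length by the authors, were used to compare genes and in limma. The deposited effective lengths served as a length offset. The FPKM columns of the authors were left aside.

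Library totals ran from 6781952 to 28289498, so a floor of 3 counts equals 0.106 to 0.442 CPM, which covers counting error only, as the reads carry no molecular identifiers. Replicates differed beyond sampling noise (chi-square per degree of freedom 4.14 to 30.5), so each library counted as 1 replicate. Of 24485 genes, 7578 had no counts.

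Following the methods of the study, the Wald test of DESeq2 1.42.0 (R 4.3.3) was fitted to all 18 libraries by group alone, with size factors from the median of ratios and independent filtering, and a Benjamini-Hochberg adjusted p under 0.05 over all genes tested was called. The 11 comparisons share libraries. Confidence intervals are at 95%. Ratios for Mefv used exact intervals on summed counts (SciPy 1.17.1). The script was tested on simulated data. The labels describe matched cultures of 3 mice, so replicate numbers were taken to pair libraries. Same-numbered libraries deviated together only weakly (mean correlation 0.0557, from -0.0789 to 0.325, against -0.0279 for other numbers). Replicate 1 was on lane 7 and replicate 3 on lane 8, while replicate 2 was on lane 7 without LPS and lane 8 with it.

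Alternatives were the replicate block, TMM factors, library totals, the length offset, edgeR 4.0.16 (quasi-likelihood), limma 3.58.1 on log2(TPM + 1) and log2(TPM + 0.1), a filter of at least 10 counts in at least 3 libraries, no independent filtering, only the groups compared, the lane as covariate, and leaving out each library. The genes named are the 10 members, Il1b, Il18, Il1a, Il10, the called gene with the largest rise and with the largest fall in each of 2 further pathway lists per comparison (among genes whose mean normalised count reached 100), and the 2 genes most like each member, of which 1 is not reported here. Itgam, Lyz2, Ly6g, Cadm3, Naip1, Naip6, Naip7, Nlrp12, Trim31, Gbp5 and Gbp2 were named after their values were seen. The members and lists were chosen with earlier results of these data known. Promoters came from RefSeq (GRCm38.p6), where Gsdmd had no entry.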

Additional observations from a re-analysis of the deposited data

Results flagged for a closer look

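The effect of JQ1 differed between cells with and without LPS for 7 of the 10 genes, by the interaction term of the DESeq2 fit, where 17.7% of all genes tested were positive and 23.8% negative. Under library totals and with limma on either TPM scale, those of Naip2, Naip5, Pycard, Casp1 and Gsdmd did not pass. That of Casp1 also failed with TMM factors (adjusted p = 0.105) and edgeR (adjusted p = 0.0974), and that of Naip5 with edgeR (adjusted p = 0.0539). The difference, as the log2 effect with LPS minus that without, was 0.81 for Nlrp3, -1.57 for Aim2, -0.63 for Naip2, -0.47 for Naip5, -0.74 for Pycard, -0.60 for Casp1 and -0.67 for Gsdmd. For Aim2 and Naip2 every JQ1 library was above every control library without LPS and below every one with LPS. Naip5 was higher with JQ1 without LPS, but during LPS its libraries overlapped and its difference did not pass (-0.18, adjusted p = 0.135 by DESeq2) and turned to 0.20, 0.11 and 0.12 under library totals and with limma on log2(TPM + 1) and log2(TPM + 0.1).

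The effect of IL-10 differed between cells with and without LPS for Nlrc4, by 1.11, and for Pycard, by 0.36. Of all genes tested, 4% were positive and 3.44% negative. The Pycard value did not pass with edgeR, with limma on TPM, on only the groups compared or in 7 of 12 fits without a single library. For Nlrc4 the libraries with and without IL-10 overlapped at rest and were separate during LPS.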

How the results depend on the processing

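No member's call changed with the replicate block or the length offset, in 110 of 110 values each. With the block the members called numbered 9, 9, 5, 10, 10, 2, 8, 8, 9, 7 and 2 over the 11 comparisons, in the order LPS against unstimulated cells, LPS + JQ1 and LPS + IL-10 against LPS, LPS + JQ1 against LPS + IL-10, JQ1 and IL-10 at rest, LPS + JQ1 against unstimulated cells, LPS + JQ1 against JQ1, LPS + IL-10 against IL-10, and the JQ1 and IL-10 interactions, the same counts as without it. Of 199 recomputed counts 181 stayed within 1.5 times. For IL-10 at rest the 2 genes called became 1 with edgeR, 0 with limma on either pseudocount, and 0 to 2 without single libraries (0 without unstimulated replicate 2, unstimulated replicate 3 or IL-10 replicate 1). For the JQ1 interaction the 7 became 3 under library totals, 4 with limma on either pseudocount, and 6 to 8 without single libraries. For the IL-10 interaction the 2 became 1 with edgeR, with limma on either pseudocount and on only the groups compared, and 1 to 2 without single libraries.

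Directions turned under library totals and on TPM, and the cause was not tested. Under library totals, log2(TPM + 1) and log2(TPM + 0.1) in turn, LPS gave -0.51, -0.35 and -0.36 for Naip2 and -0.16, -0.0071 and -0.0072 for Pycard. LPS + JQ1 against unstimulated cells gave -0.47, -0.38 and -0.39 for Naip2 and -0.50, -0.40 and -0.40 for Gsdmd, and LPS + JQ1 against JQ1 gave -0.35, -0.23 and -0.24 for Pycard. LPS + IL-10 against IL-10 gave -0.21, -0.10 and -0.11 for Naip2 and -0.75, -0.60 and -0.65 for Naip5, and the JQ1 interaction gave 0.082, 0.038 and 0.046 for Naip5. Under library totals alone LPS + JQ1 gave 0.035 against LPS for Naip2 and 0.022 against LPS + IL-10 for Naip5. The share of higher genes among all called went, between the main scaling and library totals, from 48.2% to 22.3% for LPS + JQ1 against unstimulated cells, 47.1% to 25.6% for LPS + JQ1 against JQ1, 49.6% to 21.0% for LPS + IL-10 against IL-10, 42.6% to 85.4% for the JQ1 interaction (54.7% with TMM factors) and 53.7% to 73.6% for the IL-10 interaction.

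Over all genes, LPS + IL-10 against LPS called 1968 genes and 1089 on only the 2 groups. IL-10 at rest called 358, but 208 and 123 with limma on log2(TPM + 1) and log2(TPM + 0.1), 230 without unstimulated replicate 3 and 168 without IL-10 replicate 1. The IL-10 interaction called 804, and 500 with limma on log2(TPM + 0.1). With 3 libraries a group, small changes such as those of Naip5 are at the edge of what can be called. The Naip genes share part of their sequence and cannot be separated in full by short reads, and for Mefv 3 and 6 counts limit what can be said under JQ1.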
